A study of Mus musculus with 12 samples.

Results

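The heat shock proteins and the DnaJ co-chaperones that work with them were described in the nucleus accumbens of adult mouse offspring. Members were the genes whose symbol starts with Hspa, Hspb, Hspd, Hspe, Hsph, Hsp90, Dnaja, Dnajb or Dnajc, taken from array rows annotated with exactly 1 gene symbol, and the row with the highest mean stood for each gene. This gave 67 genes in 97 rows, out of 18820 genes with such a row. The poly(I:C) group held 6 C57BL/6N offspring, aged 12 weeks, of mothers injected intravenously on gestation day 17 with poly(I:C) at 5 mg/kg. This compound is a man-made RNA duplex that imitates a viral infection. The control group held 6 offspring of the same strain and age whose mothers had received saline on the same gestation day. Both groups had been through behavioural testing before the tissue, core and shell together, was dissected. The labels name neither litter nor sex, so litter mates, if there were any, entered the tests as independent animals. Each array gave RMA log2 values, in which a difference of 1 is a doubling of the signal, and all differences are poly(I:C) minus control.

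Molecular chaperones bind unfolded stretches of other proteins and keep them from sticking together until they fold, reach a membrane or are degraded. Hsp70 proteins do this in cycles of ATP hydrolysis. J-domain proteins, named after bacterial DnaJ, bring clients to Hsp70 and start the hydrolysis, and exchange factors such as the Hsp110 proteins release the client again. Hsp90 acts later on kinases and receptors, the mitochondrial chaperonin encloses proteins in a chamber, and small heat shock proteins hold aggregating proteins without using ATP. Neurons lean on this system at the synapse, where Hspa8 works with the J-domain proteins auxilin (Dnajc6) and cysteine string protein (Dnajc5) to strip clathrin coats and keep release proteins folded. Heat shock factor 1 turns on many of these genes through repeats of the motif GAANNTTC or TTCNNGAA, whereas the endoplasmic reticulum (ER) chaperones share an ER stress motif, CCAAT followed by 9 bases and CCACG.

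The promoters of some members show these motifs. A window from 250 bases before to 50 bases after the start, from RefSeq on GRCm38.p6, was found for 55 of the 67 members. Hspa8, Hspa9, Hspa13 and Hsp90aa1 were among the members without one. In the 250 bases before the start the heat shock motif, searched as GAANNTTC and TTCNNGAA, which read the same on both strands, stood in 12 members (21.8%), against 14.5% of all 27025 genes with a window. The heat-inducible Dnajb1 held no heat shock motif in its windows. The ER stress motif, searched on both strands, stood in 3 members (5.45%), namely Hspa5, Hsp90b1 and Dnajc3, against 0.130% of all genes. The stretches printed here are those of members that return in the comparisons of levels, chosen after the values were seen, and capitals mark the motifs. Each is read 5′ to 3′ on the strand given. Hspd1 and Hspe1, which encode both parts of the mitochondrial chaperonin, are transcribed away from each other, with 215 bases between the Hspe1 start and 1 of the 2 annotated starts of Hspd1, and 3 overlapping heat shock motifs lie in between. The other Hspd1 start lies beyond that of Hspe1.
Hspd1 and Hspe1, chr1:55088029-55088106, plus strand: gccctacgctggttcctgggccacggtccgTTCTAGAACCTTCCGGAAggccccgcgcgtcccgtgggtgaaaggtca
Hsph1, chr5:149636337-149636399, minus strand: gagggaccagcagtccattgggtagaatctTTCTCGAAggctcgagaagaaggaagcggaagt
Dnaja1, chr4:40722314-40722381, plus strand: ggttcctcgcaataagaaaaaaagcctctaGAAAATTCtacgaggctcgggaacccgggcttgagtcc
Hspb1, chr5:135887772-135887859, plus strand: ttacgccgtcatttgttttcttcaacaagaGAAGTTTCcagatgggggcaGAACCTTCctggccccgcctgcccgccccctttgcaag
Dnajb6, chr5:29735822-29735894, plus strand: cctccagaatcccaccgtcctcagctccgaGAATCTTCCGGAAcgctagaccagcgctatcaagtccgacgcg
Hspa5, chr2:34771995-34772073, plus strand: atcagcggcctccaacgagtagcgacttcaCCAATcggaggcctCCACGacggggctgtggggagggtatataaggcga
Hsp90b1, chr10:86705503-86705686, minus strand: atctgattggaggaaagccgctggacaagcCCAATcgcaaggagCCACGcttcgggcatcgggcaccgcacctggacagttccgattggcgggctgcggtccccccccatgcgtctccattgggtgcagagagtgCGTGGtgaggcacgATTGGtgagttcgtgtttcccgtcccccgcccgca
Dnajc3, chr14:118937797-118937875, plus strand: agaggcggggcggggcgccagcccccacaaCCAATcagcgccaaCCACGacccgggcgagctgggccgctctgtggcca

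The ER stress motif of Hspa5 began 65 bases before the start and that of Dnajc3 105 bases before it. Hsp90b1 held 2 copies, the more distant one 212 bases before the start and the other on the opposite strand. A match is a description of the letters and not a bound site.

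The 12 arrays had medians between 4.78 and 4.85 on the log2 scale and pairwise correlations from 0.991 to 0.997. Markers of medium spiny neurons, which make up most of the striatum, averaged 9.01 ± 0.15 in poly(I:C) offspring and 8.93 ± 0.20 in controls (SD, n = 6 arrays per group), well above the median level of the tested rows, 5.47. The spread of values was narrowest on control 4 and control 1, with an SD over all tested rows of 1.88 on both, followed by poly(I:C) 6 with 1.89. The widest was on poly(I:C) 2, with 1.94.

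No chaperone gene passed the adjusted threshold of 0.05 between the groups, by limma with Benjamini-Hochberg adjustment over all 21218 rows, of which 13 (0.0613%) passed. At an unadjusted limma p under 0.05 there were 10 of 67 members (14.9%), against 14.4% of all rows, so the share among chaperones was close to the background. In an exact permutation test no row could pass the adjusted threshold, since the smallest possible p, 0.00216, became 0.192. That test gave 9 members (13.4%) an unadjusted p under 0.05, against 13.3% of all rows. A fit that left out control 1 and control 4, chosen after the values were seen, put 14 of 67 members (20.9%) at that level. Of these, 4 were higher and 10 lower, against 14.3% of all rows in either direction, a background not split by direction here. Those 2 were the lowest controls for 22 of the 50 brighter members. Poly(I:C) 1 and poly(I:C) 6, the lowest of their group for 19, were kept, which favours lower differences. Of the 10 members found with all arrays, 4 were higher in poly(I:C) offspring, where 7.83% of all rows were. The other 6 were lower, where 6.57% of all rows were. The higher ones were Hspbp1, Dnajc16, Hspbap1 and Hspa12a, and the lower ones Dnajb2, Dnajc21, Dnajc7, Dnajc3, Hspb11 and Dnajb13. By value alone, 30 members were higher and 37 lower, with a median difference of -0.01, against 0.00 over all rows. The groups did not overlap for 1 member, Dnajb2, while 1.13% of all rows had groups that did not overlap. Among the 50 members at or above the median level in the brighter group, 6 (12.0%) had an unadjusted p under 0.05, against 20.0% of all rows that bright.

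The arrays set close limits on most of these genes. The 95% interval of the difference lay within 0.25 on the log2 scale in either direction for 52 of 67 members (77.6%), against 81.4% of all rows. Over all members the intervals reached from -0.33, for Dnajc3, to 0.52, for Hspbp1.

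**Figure D1:**
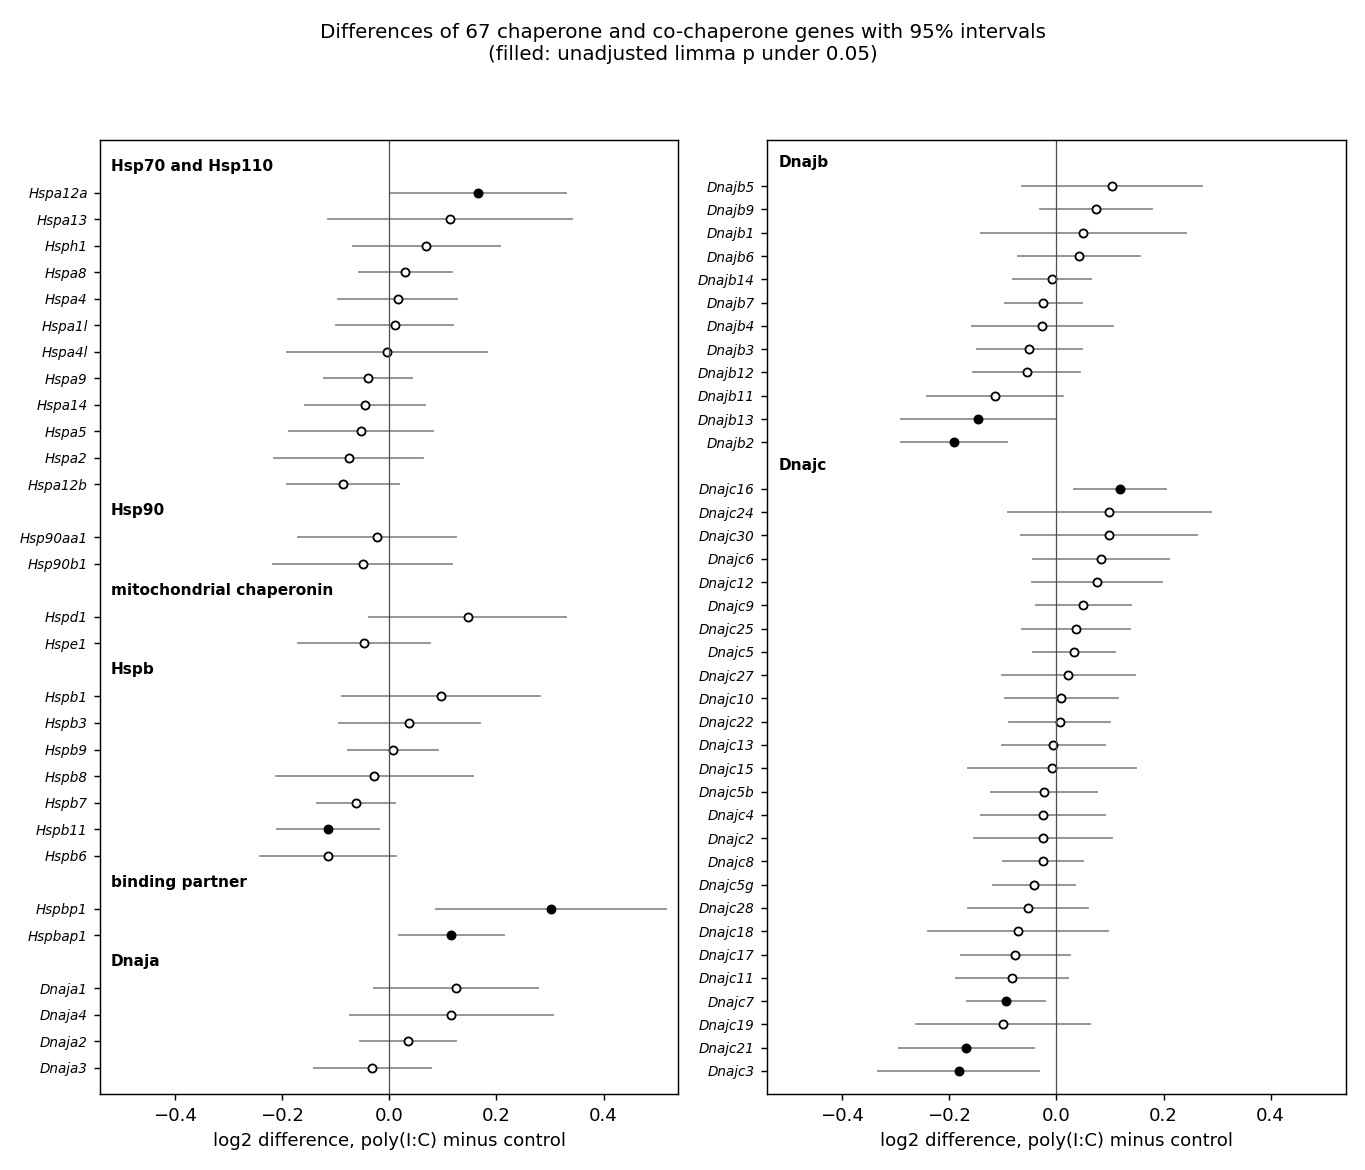
Log2 difference, poly(I:C) minus control (x axis), of each of the 67 genes, grouped by family, with points for the estimates and bars for 95% limma intervals from 6 arrays per group. Filled points mark the 10 genes with an unadjusted p under 0.05, of which Hspbp1 lies farthest to the right at 0.30 and Dnajb2 farthest to the left at -0.19.

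The difference with the smallest p was that of Dnajb2, a J-domain protein enriched in neurons that binds ubiquitin chains and passes Hsp70 clients to the proteasome. Its log2 values ran from 6.74 through a median of 6.91 to 6.97 in poly(I:C) offspring, against 6.98, 7.06 and 7.12 in controls. Every poly(I:C) array was below every control array, although poly(I:C) 3 at 6.97 and control 3 at 6.98 nearly met. The difference was -0.19 (95% interval -0.29 to -0.09), or 0.876 of the control signal. The limma adjusted p was 0.109, and the two-sided exact permutation p was 0.00216, the smallest that 6 against 6 arrays allow. Arrays poly(I:C) 1 and poly(I:C) 6, at 6.74 and 6.75, lay apart from the other poly(I:C) arrays, which ran upward from 6.91. Dnajb2 was lower in poly(I:C) offspring with an unadjusted p under 0.05 in all 22 alternative fits of its value, with adjusted p-values from 0.0729 to 0.401.

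Hspbp1, an exchange factor of Hsp70 that also holds back the ubiquitin ligase Stub1, had the largest difference of any member. Its values were 8.18 at the lowest, 8.27 at the median and 8.39 at the highest in poly(I:C) offspring, against 7.53, 8.09 and 8.25 in controls. The groups overlapped, with 4 poly(I:C) arrays above every control. Control 4 at 7.53 and control 1 at 7.78 stood far below the other 4 controls, which ran from 8.08 to 8.25. The difference was 0.30 (95% interval 0.09 to 0.52, limma adjusted p = 0.206). With control 1 and control 4 left out it was 0.14 (limma adjusted p = 0.240, and under 0.05 before adjustment). Hspbap1, which binds the small heat shock protein Hspb1, averaged 5.01 ± 0.06 in poly(I:C) offspring and 4.89 ± 0.09 in controls (SD, n = 6 each), below the median level of the tested rows, with a difference of 0.12 (limma adjusted p = 0.278).

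The Hsp70 and Hsp110 genes split evenly, with 6 of 12 higher and 6 lower in value and a median difference of 0.00. Hspa8, the constitutive Hsp70 of the cytosol, ran from 10.90 through 11.02 to 11.05 in poly(I:C) offspring, against 10.86, 10.98 and 11.01 in controls. The groups overlapped, with 4 poly(I:C) arrays just above every control and poly(I:C) 1 and poly(I:C) 6 among the low ones, and the difference of 0.03 had an interval from -0.06 to 0.12. Hspa5, the Hsp70 of the ER, ran from 9.06 through 9.32 to 9.44 in poly(I:C) offspring, against 9.25, 9.34 and 9.45 in controls, with overlap apart from 2 low poly(I:C) arrays and a difference of -0.05 (interval -0.19 to 0.08). For the mitochondrial Hsp70, Hspa9, the difference was -0.04 (interval -0.12 to 0.04). Hsph1, the heat-inducible Hsp110 exchange factor, averaged 8.86 ± 0.14 in poly(I:C) offspring and 8.79 ± 0.10 in controls, a difference of 0.07 (interval -0.07 to 0.21). Its relative Hspa4 differed by 0.02 (interval -0.10 to 0.13). The testis-enriched Hspa2 was 6.06 ± 0.11 in poly(I:C) offspring and 6.13 ± 0.13 in controls.

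Hspa12a, an atypical Hsp70 found in brain, was the 1 member of this family with an unadjusted p under 0.05. Its values ran from 7.92 through 8.22 to 8.33 in poly(I:C) offspring, against 7.78, 8.03 and 8.20 in controls. The groups overlapped, although 4 poly(I:C) arrays lay above every control. The difference was 0.17 (interval 0.00 to 0.33, limma adjusted p = 0.338). Markers of cortical glutamatergic neurons moved with it, since 5 of their 8 measured genes were higher in poly(I:C) offspring at an unadjusted p under 0.05 and their mean level was 6.59 (6.15 to 6.96) in poly(I:C) offspring and 6.11 (5.64 to 6.81) in controls. With the mean levels of 3 tissue marker lists in the fit (cortical, septal and pallidal, choroid plexus and ependymal), Hspa12a differed by -0.02. Its unadjusted p was under 0.05 in 9 of 22 alternative fits. Only control 1, at 4.76, lay within the poly(I:C) range of the choroid plexus and ependymal mean, 4.65 to 4.84. Fits with these 3 lists therefore extrapolate on that mean and cannot tell group from its level. In bulk tissue, a change in the number of cells of a type and a change in RNA per cell cannot be told apart.

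Hspa13, a microsomal Hsp70, and Hspa4l, an Hsp110 relative, showed how much control 1 and control 4 could weigh. Hspa13 was at 7.39, 7.43 and 7.59 (lowest, median, highest) in poly(I:C) offspring, against 6.93, 7.49 and 7.59 in controls. Only control 4 at 6.93 and control 1 at 7.04 lay outside the poly(I:C) range by more than a small margin, and the difference was 0.11 with all arrays but -0.07 without those 2. Hspa4l differed by 0.00 with all arrays and by -0.15 without control 1 and control 4 (limma adjusted p = 0.220, and under 0.05 before adjustment), when the SD over controls was 0.07 in place of 0.23. In poly(I:C) offspring that SD was 0.08.

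Both measured Hsp90 genes had small differences over all arrays. Hsp90aa1, the inducible cytosolic form, averaged 9.99 ± 0.08 in poly(I:C) offspring and 10.02 ± 0.17 in controls, a difference of -0.02 (interval -0.17 to 0.13). Hsp90b1, the ER form whose promoter holds 2 ER stress motifs, averaged 9.22 ± 0.10 in poly(I:C) offspring and 9.27 ± 0.19 in controls, a difference of -0.05 (interval -0.22 to 0.12). Without control 1 and control 4 the differences were -0.12 for Hsp90aa1 (limma adjusted p = 0.291) and -0.17 for Hsp90b1 (limma adjusted p = 0.214), both under 0.05 before adjustment. Hsp90ab1, Hspa1a and Hspa1b had no row with 1 symbol and were not analysed here.

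The genes of the mitochondrial chaperonin had differences of opposite sign. Hspd1, the chamber protein Hsp60, ran from 8.42 through 8.67 to 8.71 in poly(I:C) offspring, against 8.18, 8.54 and 8.63 in controls. The groups overlapped, with 4 poly(I:C) arrays above every control and control 1 and control 4 lowest. The difference was 0.15 (interval -0.04 to 0.33, limma adjusted p = 0.459), but 0.02 without control 1 and control 4. It was 0.37 with the mean level of the myelin markers in the fit. That level nearly separated the groups, so this fit cannot tell group from myelin level. A further row of Hspd1 gave 0.21. Hspe1, the lid protein Hsp10 read from the other side of the shared promoter, averaged 8.27 ± 0.07 in poly(I:C) offspring and 8.31 ± 0.13 in controls, a difference of -0.05 (interval -0.17 to 0.08).

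Most small heat shock protein genes were dim, with 2 of 7, Hspb6 and Hspb8, at or above the median level. Hspb6 averaged 5.63 ± 0.08 in poly(I:C) offspring and 5.75 ± 0.13 in controls, a difference of -0.12 (interval -0.24 to 0.01). Hspb8, which works with Bag3 to send aggregates to autophagy, differed by -0.03 (interval -0.21 to 0.16). Hspb1 differed by 0.10 (interval -0.09 to 0.28). Hspb11, an intraflagellar transport protein of cilia that carries an Hspb name, was at 4.65, 4.67 and 4.77 in poly(I:C) offspring, against 4.68, 4.81 and 4.96 in controls (lowest, median, highest). These groups overlapped, with 4 poly(I:C) arrays below every control, and the difference was -0.11 (limma adjusted p = 0.270).

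Of the J-domain genes, 18 of 42 were higher and 24 lower in value, with 1 and 5 at an unadjusted p under 0.05. That is 14.3% of the J-domain genes, against 14.4% of all rows. The Dnaja genes, whose proteins carry a zinc-binding region as bacterial DnaJ does, included 3 of 4 with higher values. Dnaja1, an Hsp70 partner of the cytosol, ran from 8.38 through 8.55 to 8.67 in poly(I:C) offspring, against 8.20, 8.46 and 8.54 in controls. The groups overlapped with 4 poly(I:C) arrays above every control, and the difference was 0.12 (interval -0.03 to 0.28). It was 0.03 without control 1 and control 4, and 0.24 with the myelin markers in the fit, whose level nearly separated the groups. Dnaja4 differed by 0.12 (interval -0.07 to 0.31), Dnaja2 by 0.03 and the mitochondrial Dnaja3 by -0.03. Dnaja4 and Dnaja2 turned to -0.04 and -0.01 in 1 alternative fit each, with tissue markers and without control 1 and control 4.

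Among the 12 Dnajb genes, 4 were higher and 8 lower in value, with a median difference of -0.03. Dnajb1, the classical heat-inducible Hsp40, was at 6.30, 6.71 and 6.81 in poly(I:C) offspring, against 6.47, 6.51 and 6.87 in controls (lowest, median, highest). The groups overlapped, with poly(I:C) 6 below and control 5 above all other arrays, and the difference was 0.05 (interval -0.14 to 0.24). Dnajb6, a strong suppressor of polyglutamine aggregation, differed by 0.04 (interval -0.07 to 0.16). Dnajb4 and Dnajb5, further relatives of Dnajb1, differed by -0.03 and 0.10, with unadjusted p-values at or above 0.05 in every alternative fit.

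Dnajb13, a radial spoke protein of motile cilia and sperm tails, lay at 3.76, 3.82 and 3.88 in poly(I:C) offspring, against 3.79, 3.95 and 4.15 in controls (lowest, median, highest), far below the median level. Control 2, control 4 and control 6 were high, between 4.08 and 4.15, while the other 3 controls lay within the poly(I:C) range. The difference was -0.15 (limma adjusted p = 0.340, exact permutation p = 0.115), with an unadjusted p under 0.05 in 7 of 21 alternative fits. Choroid plexus and ependymal markers moved with it, with the lower mean in poly(I:C) offspring for 11 of 11 and 4 of them at an unadjusted p under 0.05. Their mean level was 4.74 (4.65 to 4.84) in poly(I:C) offspring and 5.30 (4.76 to 6.21) in controls, and the same controls 2, 4 and 6 were highest, at 5.29, 5.77 and 6.21. Without control 4 and control 6 the difference of Dnajb13 was -0.06. With tissue markers in the fit, whose choroid plexus and ependymal mean nearly separated the groups, it was 0.00. The other cilia gene, Hspb11, differed by -0.11 without those 2 controls and by -0.14 with the markers.

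In the Dnajc family, 11 of 26 genes were higher and 15 lower in value. Dnajc7, a protein that binds Hsp70 and Hsp90 alike and moves clients between them, ran from 8.10 through 8.17 to 8.22 in poly(I:C) offspring, against 8.18, 8.27 and 8.31 in controls. The groups overlapped through control 6 alone, the others lying at 8.26 or above. The difference was -0.09 (interval -0.17 to -0.02, limma adjusted p = 0.240), and its unadjusted p was under 0.05 in all 22 alternative fits. Dnajc16, a J-domain protein of the ER membrane, ran from 7.84 through 7.88 to 8.01 in poly(I:C) offspring, against 7.70, 7.76 and 7.88 in controls. Control 3 alone lay within the poly(I:C) range, and 3 poly(I:C) arrays were above every control. That difference was 0.12 (interval 0.03 to 0.21, limma adjusted p = 0.212), and 0.05 with tissue markers in the fit.

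Dnajc3, an ER J-domain protein that also inhibits the stress kinase encoded by Eif2ak3, was at 6.76, 7.12 and 7.18 in poly(I:C) offspring, against 7.10, 7.26 and 7.41 in controls (lowest, median, highest). The groups overlapped, with poly(I:C) 6 far below the rest. The difference was -0.18 (interval -0.33 to -0.03, limma adjusted p = 0.264), and -0.12 without poly(I:C) 6. Myelin markers were lower in poly(I:C) offspring beside it, with 9 of 10 at an unadjusted p under 0.05 and a mean level of 7.86 (7.79 to 7.98) in poly(I:C) offspring and 8.22 (7.94 to 8.51) in controls. With the myelin marker mean in the fit, Dnajc3 differed by -0.09, and with 3 tissue lists in the fit by -0.23. Dnajc21, a factor in ribosome assembly, averaged 5.09 ± 0.10 in poly(I:C) offspring and 5.26 ± 0.11 in controls. The difference was -0.17 (limma adjusted p = 0.223), and -0.04 with the myelin marker mean in the fit. Only control 1, at 7.94, lay within the poly(I:C) range of that mean. Fits with it therefore extrapolate and cannot tell group from myelin level. The same holds for the choroid plexus and ependymal mean of the 3 tissue lists, with only control 1 in the poly(I:C) range.

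The synaptic J-domain genes had small differences. Dnajc6, auxilin, averaged 9.21 ± 0.12 in poly(I:C) offspring and 9.13 ± 0.10 in controls, a difference of 0.08 (interval -0.04 to 0.21). Dnajc5, cysteine string protein, averaged 9.44 ± 0.03 in poly(I:C) offspring and 9.41 ± 0.06 in controls, a difference of 0.03 (interval -0.04 to 0.11). With tissue markers in the fit they differed by -0.04 and -0.02. Dnajc12, which assists the enzymes that hydroxylate aromatic amino acids, differed by 0.08 (interval -0.04 to 0.20).

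**Figure D2:**
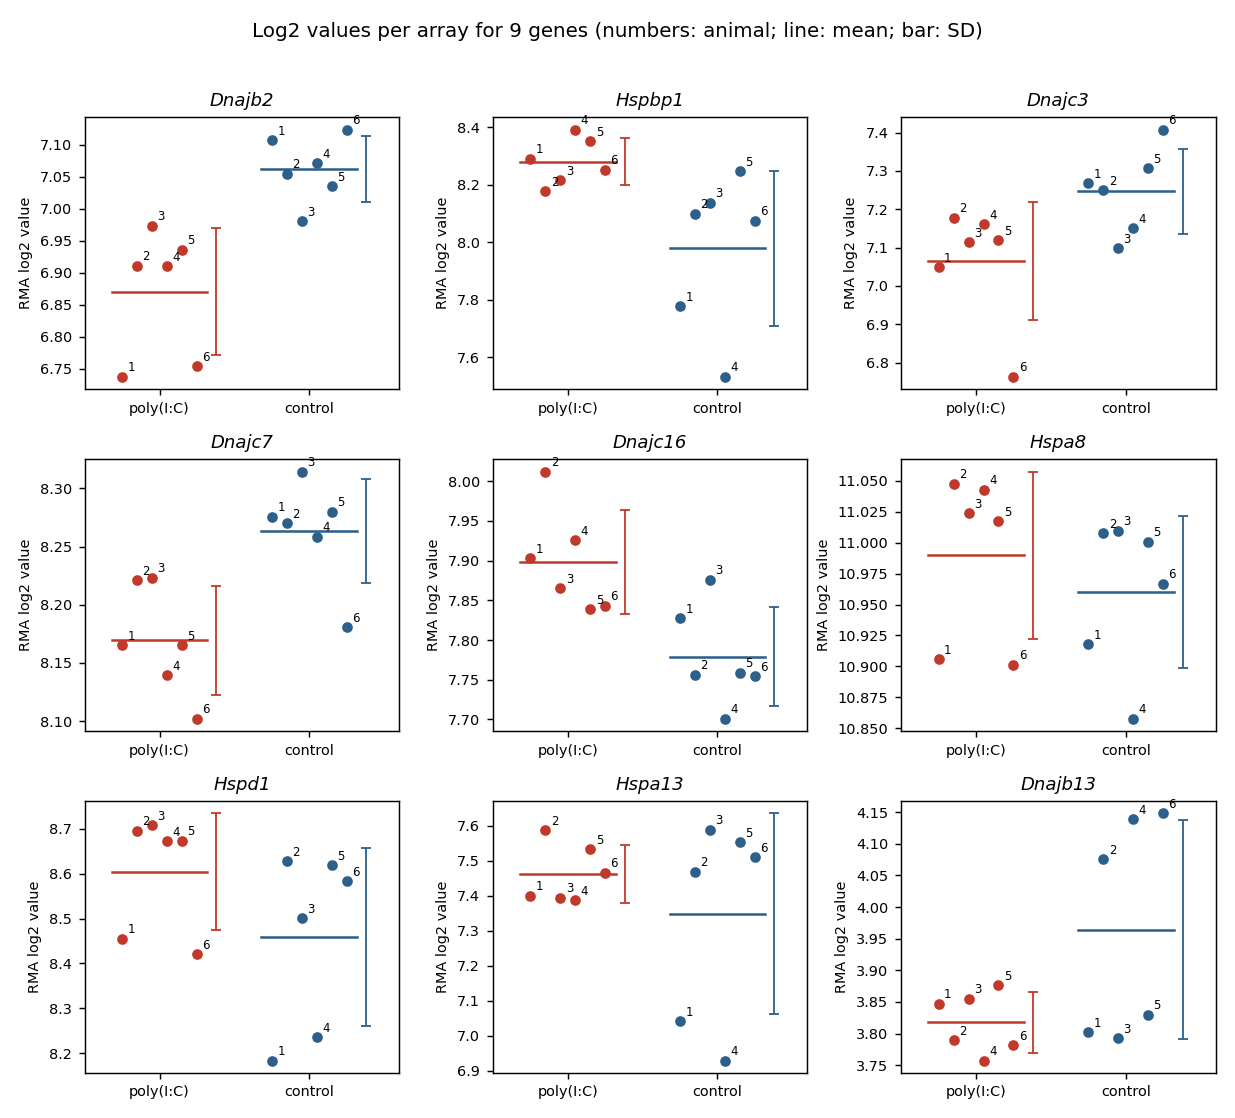
RMA log2 value (y axis) of 9 chaperone genes on each of the 6 poly(I:C) arrays, left in each panel, and the 6 control arrays, right, with numbers for animals, lines for means and bars for SD. Dnajb2 is the panel without overlap, control 1 and control 4 are lowest for Hspbp1, Hspd1 and Hspa13, and control 2, control 4 and control 6 are high for Dnajb13.

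A compartment list placed 9 members in the ER, 3 higher and 6 lower in value with a median difference of -0.05. It did not hold Dnajc16, at 0.12, whose protein is also known from the ER membrane. Besides Hspa5, Hsp90b1, Hspa13 and Dnajc3 the 9 were Dnajb11, Dnajb9, Dnajb12, Dnajb14 and Dnajc10. Dnajb11, a soluble J-domain partner of Hspa5, had a median of 6.53 (6.26 to 6.65) in poly(I:C) offspring and 6.57 (6.54 to 6.71) in controls, with a mean difference of -0.11 (interval -0.24 to 0.01). Dnajb9, an ER J-domain protein that restrains the sensor Ern1, had 0.07 (interval -0.03 to 0.18), and the disulphide reductase Dnajc10 had 0.01. Of the 9 members listed as mitochondrial, 2 were higher and 7 lower in value, with a median difference of -0.04 and 0 at an unadjusted p under 0.05.

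Genes with several rows showed how far probes of 1 gene differed. Dnajc13, an endosomal J-domain protein, had 15 rows with differences from -0.06 to 0.15, of which 11 were positive and 1 had an unadjusted p under 0.05. The correlations between its rows over the 12 arrays had a median of 0.72 and ran from -0.31 to 0.96. The 3 rows of Hspa8 gave differences between 0.02 and 0.04, and those of Hsp90aa1 between -0.02 and 0.01. The 2 rows of Dnaja1 gave 0.09 and 0.12 but correlated at only 0.44, and the correlations of Dnaja1 given below use its brighter row alone. Dnajb6 had 5 rows with differences from -0.01 to 0.06. The correlations between them had a median of 0.95 and a lowest of -0.30. For Hspb1, 1 of 3 rows ran against the other 2, with a lowest correlation of -0.21 and differences from -0.08 to 0.10. Both Dnajc3 rows held identical values and count as 1 measurement.

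Of the genes that assist or regulate chaperones, 0 passed the limma adjusted threshold in any of 6 lists, where 0.0613% of all rows passed. The counts at an unadjusted p under 0.05 stand beside 14.4% of all rows and 20.0% of rows at or above the median level. Of 26 listed partners of Hsp70 and Hsp90, 24 were measured, with 1 higher and 1 lower at an unadjusted p under 0.05. Bag6, which guards tail-anchored membrane proteins, was 7.96 ± 0.03 in poly(I:C) offspring and 7.87 ± 0.05 in controls, a difference of 0.09 (limma adjusted p = 0.257). Bag3, the autophagy partner of Hspb8, was 5.29 ± 0.03 in poly(I:C) offspring and 5.44 ± 0.14 in controls, a difference of -0.14 (limma adjusted p = 0.257). The cytosolic chaperonin and prefoldin had 0 of 14 measured genes at that level, the smallest p-values being those of Cct2 at -0.07 and Cct5 at -0.04. In the list of ER folding and stress genes, 1 of 17 was higher, the kinase gene Eif2ak3 with 0.14 (limma adjusted p = 0.311), and Creld2, an ER stress target, had -0.18 (interval -0.41 to 0.05). Mitochondrial quality control genes numbered 0 of 10, with Lonp1, a matrix protease, at 0.08 and Trap1, the mitochondrial Hsp90, at 0.11. The heat shock factors and their regulators numbered 0 of 4, with Hsbp1 at 0.04 and Hsf5 at 0.03. A last list of small heat shock and disaggregation genes had 2 of 4 higher, which were the members Hspbp1 and Hspbap1 already described.

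Across animals, the mean correlation between chaperone genes was above that between all genes, a contrast that was not tested. Each gene was taken as its deviation from its own group mean, so that a difference between the groups could not create a correlation, and Pearson's r over the 12 arrays is given as a description, because all genes share the same arrays and their overall quality. Over the 2211 pairs of members the mean r was 0.11, and 132 pairs (5.97%) had an r above 0.7. Over all pairs of the 18820 genes the mean was 0.01 and 2.15% were above 0.7. The contrast was also there at similar brightness, since the 50 brighter members had a mean of 0.22 and 10.2% of 1225 pairs above 0.7, against 0.09 and 4.87% for all genes that bright.

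Within the families, the 4 Dnaja genes had a mean r of 0.67 over 6 pairs, and Hsp90aa1 and Hsp90b1 had 0.93. The 12 Hsp70 and Hsp110 genes had 0.12, the Dnajb genes 0.11, the Dnajc genes 0.07 and the mostly dim small heat shock proteins -0.08. The highest pairs joined Dnaja1 with Hsp90b1 (r = 0.96), Hsp90b1 with Hspd1 (0.94), Dnaja1 with Hspa4l (0.93), Hsp90b1 with Hspa4l (0.93) and Dnaja1 with Hsp90aa1 (0.92). Dnaja4 ran with Hspa4 (0.94) and with Hspa8 (0.92), and Hspa8 also ran with Hspd1 (0.88) and Dnaja1 (0.85). Dnajc6 ran with Hspa12a (0.94). Hspa8 had the highest mean r with the other members, 0.31, followed by Hspa4 and Dnaja4 with 0.29 each. The opposite behaviour was seen for Dnajb12, a J-domain protein of the ER membrane, at -0.86 with its close relative Dnajb14 and -0.84 with Hsp90aa1.

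The 12 members whose promoter window held a heat shock motif had a mean r of 0.28 over 66 pairs. The 43 members whose window did not had 0.07 over 903 pairs. These sets were not matched for brightness, and the 50 brighter members as a whole had a mean r of 0.22. The 3 genes with the ER stress motif had r values of 0.67 for Hspa5 and Dnajc3, 0.62 for Hspa5 and Hsp90b1, and 0.44 for Hsp90b1 and Dnajc3. Between the groups, 0 of the 12 members with a heat shock motif and 10 of the 43 without one had an unadjusted p under 0.05, where 14.4% of all rows did. These splits were made after the values were seen and were not tested.

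**Figure D3:**
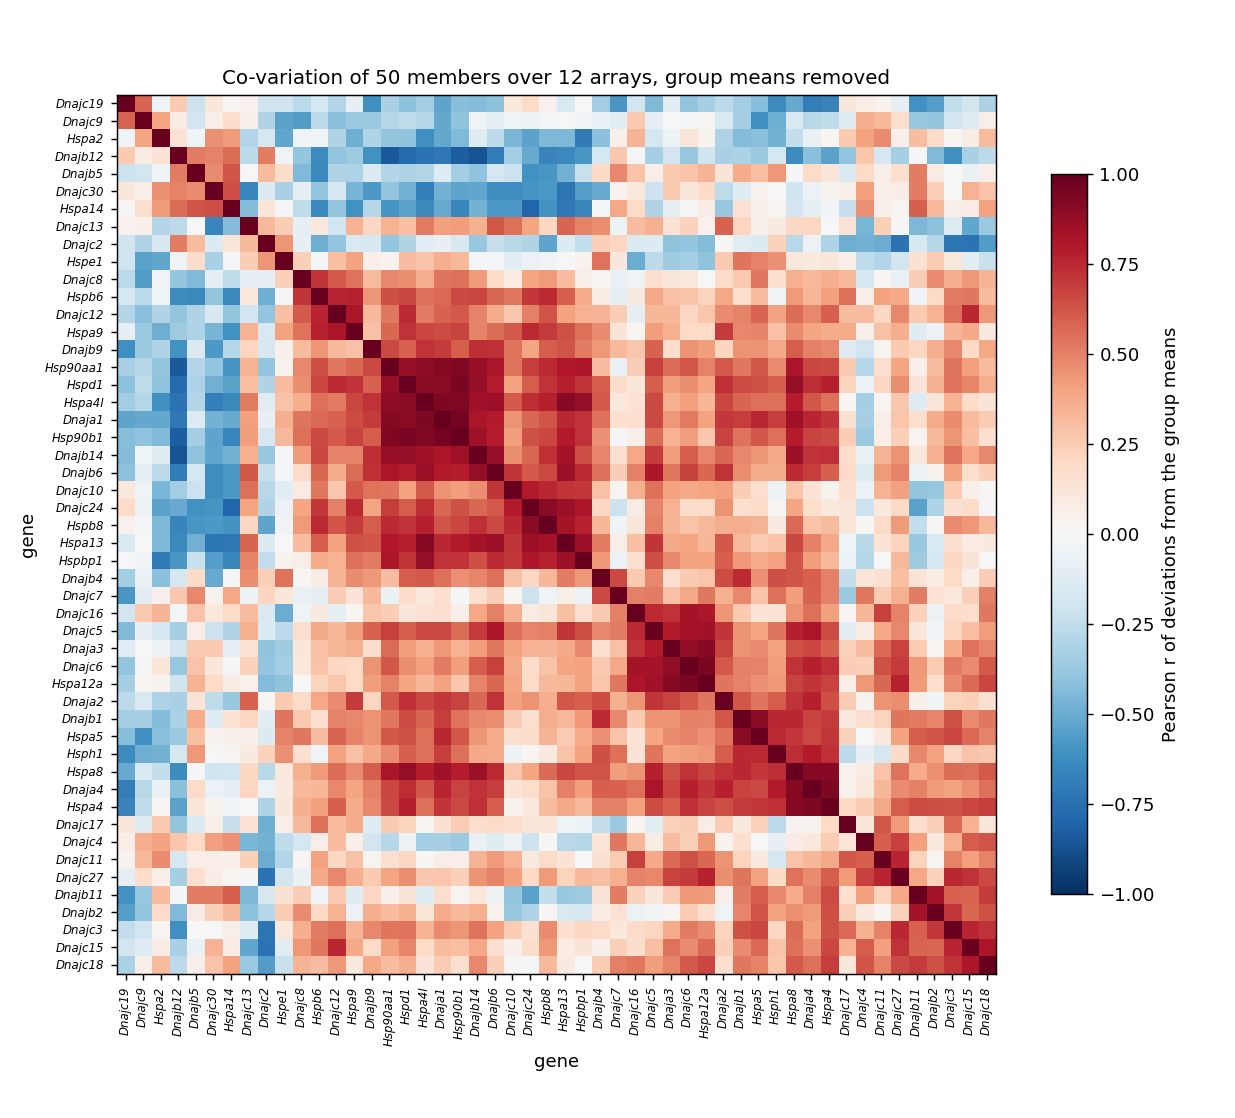
Pearson r of deviations from the group means over 12 arrays (colour, from -1 to 1) between the 50 chaperone genes at or above the median level, with genes ordered by average-linkage clustering on both axes. Hsp90aa1, Hspd1, Hspa4l, Dnaja1 and Hsp90b1 stand together, Hspa8, Dnaja4 and Hspa4 stand together and also run with the first 5, and Dnajb12 runs against these.

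The low values were concentrated on a few arrays. Poly(I:C) 6 was the lowest of its group for 28 of the 50 brighter members (56.0%), against 43.7% of all genes that bright. Control 4 was the lowest of its group for 22 of them (44.0%), against 24.6%. Poly(I:C) 1 and poly(I:C) 6 were together the lowest pair of their group for 19 members (38.0%), against 14.4% of all genes. Control 1 and control 4 were so for 22 members (44.0%), against 29.0%. Both pairs were picked after the values were seen, which favours an excess among the members. Hspa8, Dnaja1, Hspd1, Hspa4, Hsp90aa1 and Hsp90b1 were among the members with these pairs lowest in both groups. Control 1, control 4 and poly(I:C) 6 had the narrowest spread of values, while poly(I:C) 1, with an SD of 1.92, was among the wider ones. The part of the spread in these low levels was not tested.

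For 15 pairs of genes whose products or promoters are known to be linked, correlations were tested over the 12 arrays, and 13 of the pairs were measured. After adjustment over the 13 pairs, 8 passed by Pearson's r and 5 by Spearman's rho. On deviations from the group means the counts were 8 and 3. These tests set each r against 0 and not against other chaperone pairs, which share the same arrays. Among the 50 brighter members, 10.2% of 1225 pairs had an r above 0.7 on deviations. Whether the linked pairs exceed other chaperone pairs was not tested. Hspa8 with Dnaja1 had the highest values, r = 0.84 (permutation test, adjusted p = 0.00936) and rho = 0.86 (adjusted p = 0.00702). On deviations r was 0.85 (permutation test, adjusted p = 0.0172), while rho was 0.52 and no longer passed (adjusted p = 0.137). Hspa8 with Dnajb1, its classical co-chaperone, had r = 0.76 (raw permutation p = 0.00463, adjusted p = 0.0141) and rho = 0.79 (adjusted p = 0.0211). Hsph1 had r = 0.76 with Dnajb1 and with Hspa8 alike (permutation test, adjusted p = 0.0141 for both). Hspa8 with Dnajc6, partners in clathrin uncoating, had r = 0.74 (permutation test, adjusted p = 0.0141) and rho = 0.72 (adjusted p = 0.0353).

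The ER pairs passed by r and not by rho. Hspa5 had r = 0.64 with Hsp90b1 (permutation test, adjusted p = 0.0442), 0.66 with Dnajc3 (adjusted p = 0.0442) and 0.63 with Dnajb11 (adjusted p = 0.0486), while the adjusted p of rho was 0.0740, 0.343 and 0.432 in that order. On deviations Hspa5 with Dnajb11 had r = 0.61 and no longer passed (permutation test, adjusted p = 0.0507). Within the 6 poly(I:C) arrays Hspa5 and Dnajb11 had r = 0.92, against -0.62 within the 6 controls, and the difference between the groups was not tested. Hspd1 with Hspe1, which share a promoter, had r = 0.17 (permutation test, adjusted p = 0.621), with control 4 low for Hspd1 at 8.24 and high for Hspe1 at 8.42. The other pairs that did not pass were Hspa9 with Hspd1 at 0.46, Hsph1 with Hsp90aa1 at 0.42, Hspb1 with Hspb8 at 0.33 and Hspa2 with Hspa8 at -0.30. On deviations Hspa9 with Hspd1 passed by r, at 0.73 (permutation test, adjusted p = 0.0172), and not by rho, at 0.61 (adjusted p = 0.0873).

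With the 2 arrays farthest from the median of the first gene left out, 0 of 13 pairs passed, although several correlations stayed near their size. Hspa8 with Dnaja1 had r = 0.78, Hsph1 with Hspa8 0.75, Hsph1 with Dnajb1 0.71 and Hspa8 with Dnajb1 0.69 (permutation test, adjusted p = 0.0851 for each). Hspa5 with Dnajc3 then had r = 0.01 and with Dnajb11 -0.34, and those relations rest on the omitted arrays. Hspa8 with Dnajc6 had r = 0.46. Without control 1 and control 4, 7 of 13 passed by r and 0 by rho. Within either group of 6 arrays 0 of 13 passed by exact permutation, with r from 0.23 to 0.94 in poly(I:C) offspring and from -0.68 to 0.85 in controls.

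**Figure D4:**
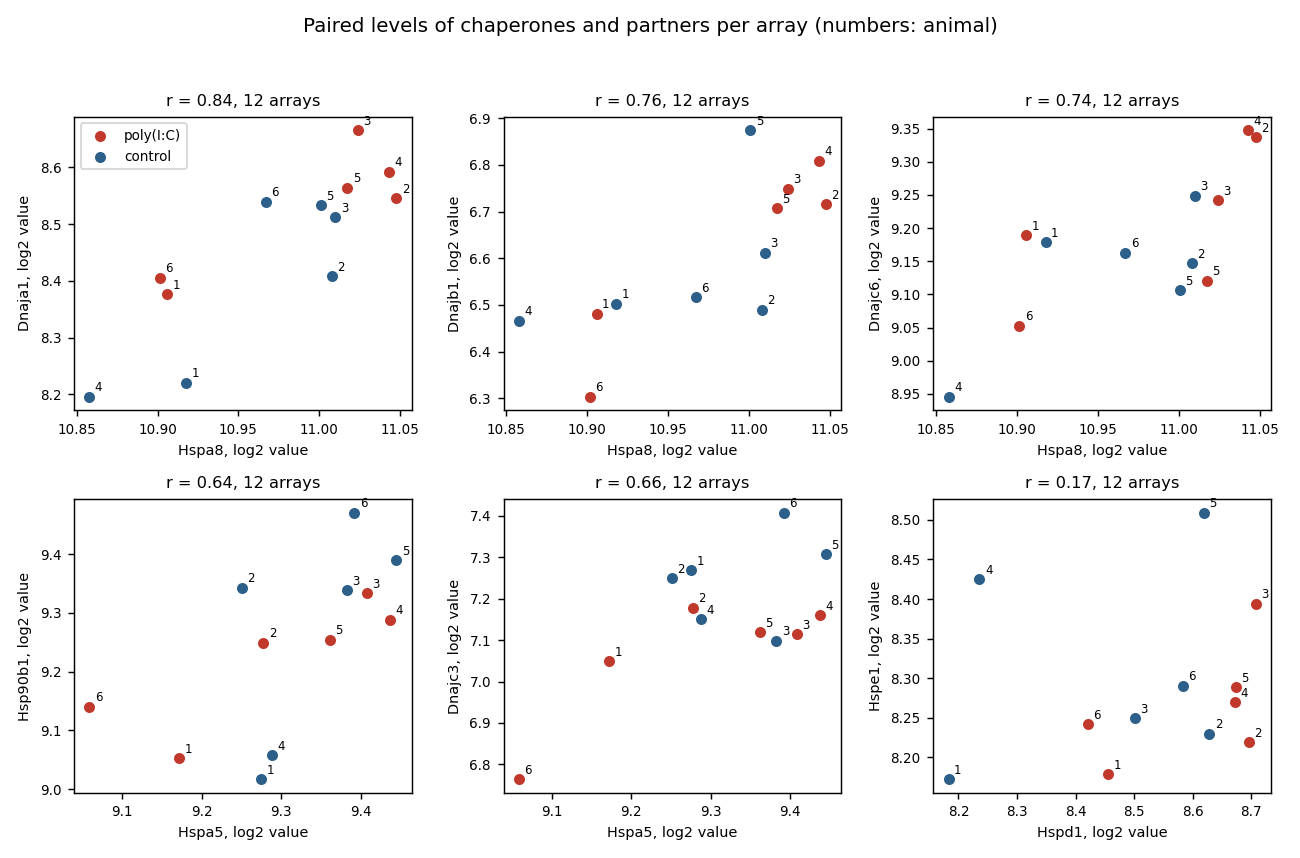
Log2 values of 6 gene pairs on the 12 arrays, with poly(I:C) in red, control in blue and numbers for animals. The points of Hspa8 with Dnaja1 (r = 0.84) rise from control 4, control 1, poly(I:C) 1 and poly(I:C) 6 at the lower left, and control 4 stands off the trend of Hspd1 with Hspe1 (r = 0.17).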

How the data were processed

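Gene expression was measured on Affymetrix Mouse Gene 1.1 ST arrays, with 250 ng of RNA on each, as the labels' protocols state. The authors deposited 1 table of 35556 rows of log2 values, made with RMA and Partek 6.6 per the submitters' processing notes. RMA gives all arrays a common probe distribution, so a shift shared by most genes would not be visible. Depth does not apply to arrays, and their number limits the precision. Groups came from the sample titles. Rows were named from the platform annotation, and the 21218 rows with 1 symbol were tested, while 1881 with several and 12457 with none were not.

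Tests used limma 3.58.1 in R 4.3.3 (lmFit, eBayes, two-sided, group as the only term, 10 residual degrees of freedom), with Benjamini-Hochberg adjustment over all 21218 rows. The fit was checked on simulated data. Correlations used Python 3.11.15 and scipy 1.17.1, with 100000 permutations over 12 arrays and 720 exact ones within 6. Members, lists, pairs and naming rule were chosen with earlier results of these data known. The rule names the 10 members with the smallest p in each direction, a set of main chaperones, the members of the pairs and up to 2 genes per related list. Other members named, such as Dnajc13, and the motif search were chosen after the values were seen. Marker lists of septal, astrocyte, microglial, endothelial and immediate early genes were also fixed, with 3 of 8, 0 of 8, 2 of 8, 0 of 8 and 2 of 10 genes at an unadjusted p under 0.05 in that order.

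Alternatives were other eBayes settings, array weights, a level filter, quantile normalization, median centring, tissue markers as covariates, the replicate number as a block, an exact permutation test and arrays left out. Replicate numbers are shared between the groups, but same-numbered arrays deviated together (r above 0.1) in 1 of 6 cases, so they were not taken as pairs.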

Additional observations from a re-analysis of the deposited data

Results flagged for a closer look

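Of 82 sets of 6 arrays of 1 gene and group, 7 held an array far from the other 5, and chance alone is expected to give about 1 in 20. Poly(I:C) 6 was the low one for Dnajc3 at 6.76, for Dnajc12 at 5.37 and for Hspa9 at 8.70. Control 1 was the low one for Dnajc12 at 5.31 and for Hspa9 at 8.67. The high ones were control 5 for Dnajb1 at 6.87 and poly(I:C) 2 for Hspa2 at 6.27. Poly(I:C) 6 and control 1 are 2 of the 3 arrays with the narrowest spread of values.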

How the results depend on the processing

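In each of 23 alternatives 0 chaperone genes passed the adjusted threshold (lowest limma adjusted p = 0.0729, for Dnajb2), though in the exact permutation test no row could. At an unadjusted p under 0.05 there were between 7 (10.4%, against 11.4% of all rows, without control 4) and 14 (20.9%, against 14.3%, without controls 1 and 4). The 13 rows past the threshold over all genes were unstable, with 1 under trended robust moderation, 140 with array weights, 20 among brighter rows, 38 after quantile normalization, 0 with either marker covariate or without controls 4 and 6, 5 without controls 1 and 4, and from 0 to 84 with 1 array left out. With the replicate block that count was 0, and 8 members (11.9%, against 13.2% of all rows) in place of 10 had an unadjusted p under 0.05. The number of arrays limits precision, and small differences at low levels are compressed. The 4 higher members became 0 with 3 tissue marker lists, where the 6 lower became 9, and 2 without controls 4 and 6, and ranged from 2 to 5 with 1 array left out. The 6 lower members became 3 among brighter rows, where fewer were tested, and 10 without controls 1 and 4. The 8 correlated pairs became 0 within either group and without the 2 farthest arrays, 2 with tissue markers fitted out, 7 without controls 1 and 4 and 8 on deviations from the group means. The causes were not tested. Of 41 named members, 21 changed sign somewhere. With 3 tissue lists, whose choroid plexus and ependymal mean nearly separated the groups, these were Dnaja4 at -0.039, Dnajb1 at -0.083 and Dnajb5 at -0.046. In that fit Dnajc10 at -0.0029, Dnajc5 at -0.018, Dnajc6 at -0.037 and Hspa12a at -0.024 also changed sign. So did Hspa4 at -0.059, Hspa8 at -0.022 and Hsph1 at -0.031. With the myelin marker mean, which nearly separated the groups, they were Dnajb13 at 0.025, Dnajb5 at -0.16, Hsp90aa1 at 0.13 and Hsp90b1 at 0.16. In that fit Hspa4l at 0.18, Hspa9 at 0.022, Hspb6 at 0.062 and Hspb8 at 0.18 also changed sign. Without controls 1 and 4 they were Dnaja2 at -0.0076, Dnajb6 at -0.031, Dnajc10 at -0.045, Hspa13 at -0.069, Hspa4 at -0.016 and Hspa8 at -0.0065. Without controls 4 and 6 they were Dnajc10 at -0.0088 and Hspa4 at -0.0044. Array weights gave Dnajc10 at -0.0024 and quantile normalization Dnajc10 at -0.014. With 1 array left out, the ranges that crossed 0 were Dnajb4 from -0.054 to 0.022, Dnajc10 from -0.021 to 0.029, Hsp90aa1 from -0.075 to 0.016, Hspa4 from -0.0058 to 0.048, Hspa4l from -0.069 to 0.042 and Hspb8 from -0.084 to 0.010. Hspa2 with Hspa8 had r = 0.23 within poly(I:C) arrays and 0.14 without controls 1 and 4, Hspa5 with Dnajb11 -0.62 within controls and -0.34 without the 2 farthest arrays, Hspa9 with Hspd1 -0.19 there, and Hspb1 with Hspb8 -0.042 there and -0.30 with tissue markers fitted out.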
